A study of Homo sapiens with 8 samples.

Results

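PLEC, EPPK1, MACF1 and DST encode plakins, giant proteins that tie the filament systems of the cell to one another and to its junctions. TIA1 and RBFOX2 binding to RNA of these 4 genes was read from the peaks that lay within their spans on the gene strand. The spans, in the hg19 build, were 144989 to 145051 kb on the minus strand of chromosome 8 for PLEC, 144939 to 144953 kb on the same strand for EPPK1, 39546 to 39953 kb on the plus strand of chromosome 1 for MACF1, and 56322 to 56820 kb on the minus strand of chromosome 6 for DST. The genes were selected on peak positions and values of these same lists, so every count, fold and position given for them is a description without a test. Together they held 21 peaks: 14 of the 3215 TIA1 peaks, 0.435% of that list, and 7 of the 4227 RBFOX2 peaks, 0.166%.

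The peaks came from eCLIP, in which ultraviolet light crosslinks RNA to protein before immunoprecipitation and sequencing. All 8 libraries were from HEK293T, an established cell line of human embryonic kidney origin with the SV40 large T antigen. Each protein had 2 immunoprecipitated (clip) libraries, for which the labels name an anti-HA antibody, and 2 input libraries with no antibody. Every library came from cells given 600 mJ of ultraviolet light, and no other treatment is named for any group. The labels do not describe a tagged construct, one protocol text gives TIA1-coated beads even for the RBFOX2 libraries, and replicates are called biological in the protocol and technical in the design text. The authors deposited 1 joint peak list per protein, so no value per replicate and no read depth is given, and no spread between replicates could be computed. Each peak has the authors' log2 fold, read here as clip over input, and the authors' −log10 p. Listed peaks begin at about 3 on both scales, and a site below those limits is not seen. A count of 0 therefore does not show that a protein was not bound there.

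Plakins are built from a shared set of modules. Plectin (PLEC) links intermediate filaments to actin and to hemidesmosomes, and its loss causes skin blistering with muscle disease. Epiplakin (EPPK1) consists of plakin repeats alone and binds keratins. MACF1 and DST (dystonin, also called BPAG1) are spectraplakins, which can bridge actin filaments and microtubules, and both make several isoforms through alternative starts and splicing. TIA1 prefers U-rich RNA and promotes the use of weak splice sites, and RBFOX2 binds GCAUG and regulates alternative exons.

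Peaks of each protein were counted gene by gene. PLEC held 5 TIA1 peaks and 0 RBFOX2 peaks, and DST held 1 TIA1 peak and 3 RBFOX2 peaks. MACF1 was the gene with most peaks in each list, 8 for TIA1 and 4 for RBFOX2. EPPK1 held 0 peaks in either list. The opposite strand of all 4 spans held 0 peaks. How many spans of these lengths hold 0 peaks was not counted, so nothing is read from the counts of 0. Per 100 kb of span, TIA1 peaks were densest in PLEC, with 8.06, against 1.97 in MACF1 and 0.201 in DST. RBFOX2 peaks came to 0.983 per 100 kb in MACF1 and 0.602 in DST. These densities rest on span length and not on the length of the mature RNA, and the level of each RNA in these cells is not known from the lists.

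**Figure D1:**
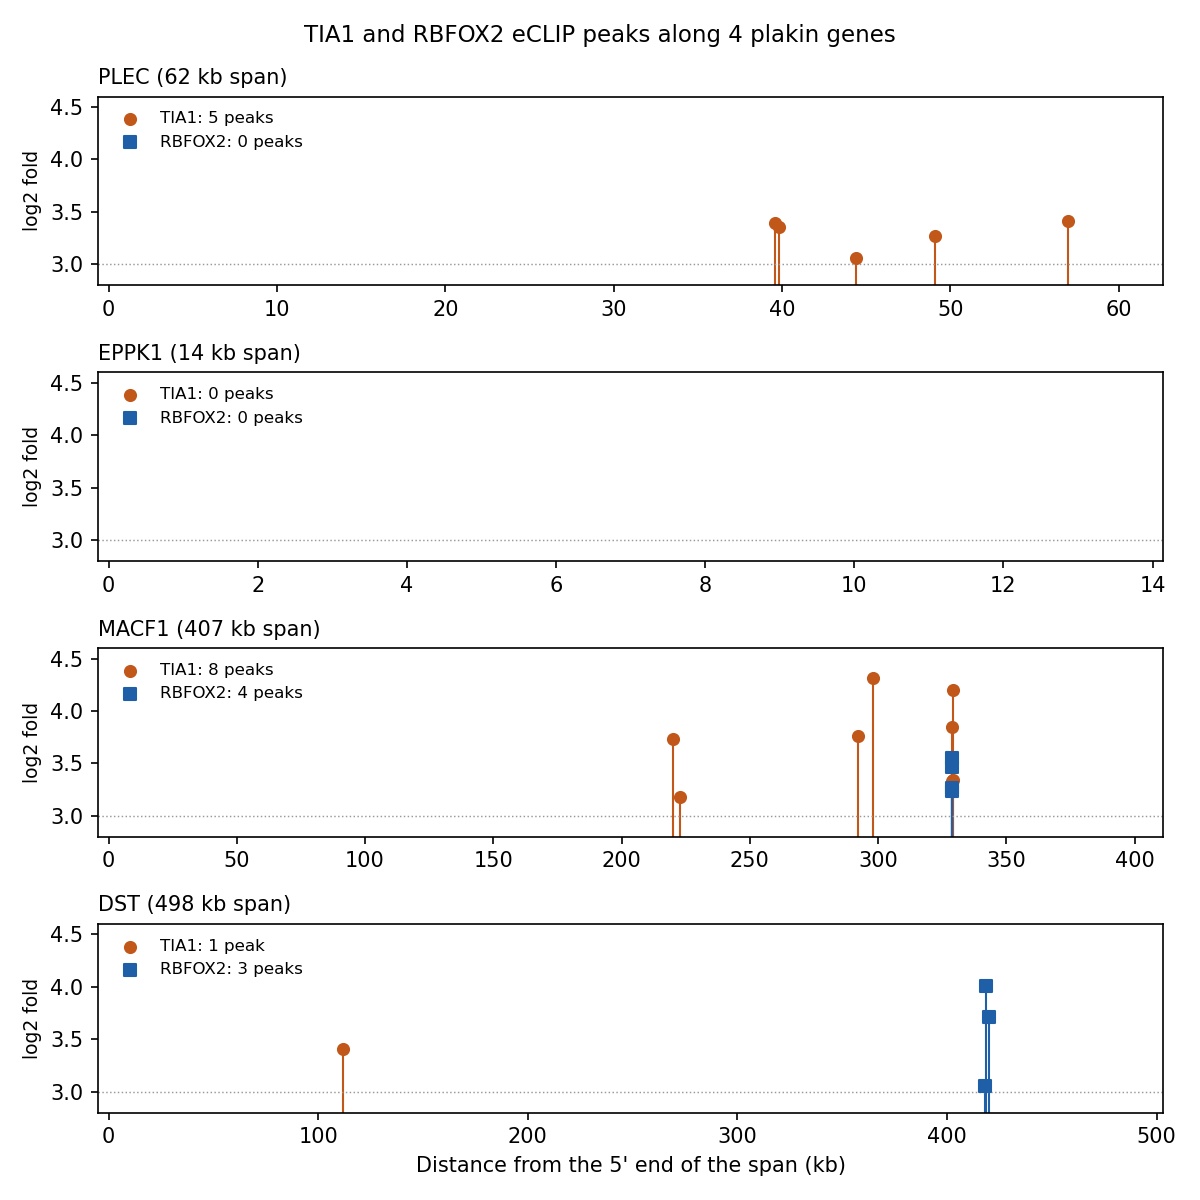
Position of each peak along the 4 spans, as distance in kb from the 5′ end of the gene (x axis), with the authors' log2 fold on the y axis. TIA1 peaks are orange circles, RBFOX2 peaks are blue squares, and the dotted line marks a log2 fold of 3, where the lists begin. PLEC has TIA1 peaks only, EPPK1 has none, and in MACF1 peaks of both lists overlap at a single site.

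In MACF1, TIA1 and RBFOX2 peaks came together at a single site of 477 bases on the plus strand of chromosome 1, from 39874754 to 39875230. The site lay 328.8 kb from the 5′ end of the span and took up 0.117% of the span, yet it held all 4 RBFOX2 peaks of the gene and 4 of its 8 TIA1 peaks. The first RBFOX2 base preceded the first TIA1 base by 4 bases. The last TIA1 base lay 89 bases beyond the last RBFOX2 base. TIA1 peaks covered 310 bases and RBFOX2 peaks 356 bases of the site, and 222 bases were covered by both. That is 71.6% of the TIA1 bases and 62.4% of the RBFOX2 bases.

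The 4 RBFOX2 peaks at this MACF1 site followed one another with gaps of 11, 13 and 8 bases. The first (39874754 to 39874816) showed a log2 fold of 3.47 and a −log10 p of 4.03. The second, at 39874828 to 39874920, had 3.26 and 7.50. The third, at 39874934 to 39875024, had 3.24 and 8.24. The peak with the highest fold was thus not one of those with the highest −log10 p, since the fourth, at 39875033 to 39875141, had the highest log2 fold, 3.55, with a −log10 p of 5.50. With peaks within 50 bases joined, all 4 formed 1 site of 388 bases.

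The 4 TIA1 peaks at the MACF1 site were spaced more widely, with gaps of 103, 40 and 20 bases. The first (39874758 to 39874832) showed a log2 fold of 3.85 and a −log10 p of 4.58. The second, at 39874936 to 39875010, had 3.33 and 5.86, and lay wholly within the third RBFOX2 peak. The third, at 39875051 to 39875133, had 3.34 and 3.83, and lay wholly within the fourth RBFOX2 peak. The inner TIA1 peaks were therefore nested in RBFOX2 peaks, while the outermost one was not shared: at 39875154 to 39875230, where the log2 fold was 4.20 and the −log10 p 4.83, it began after 12 bases that no RBFOX2 peak covered. The first TIA1 peak shared 59 bases with the first RBFOX2 peak, 93.7% of the latter, and 5 bases with the second.

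**Figure D2:**
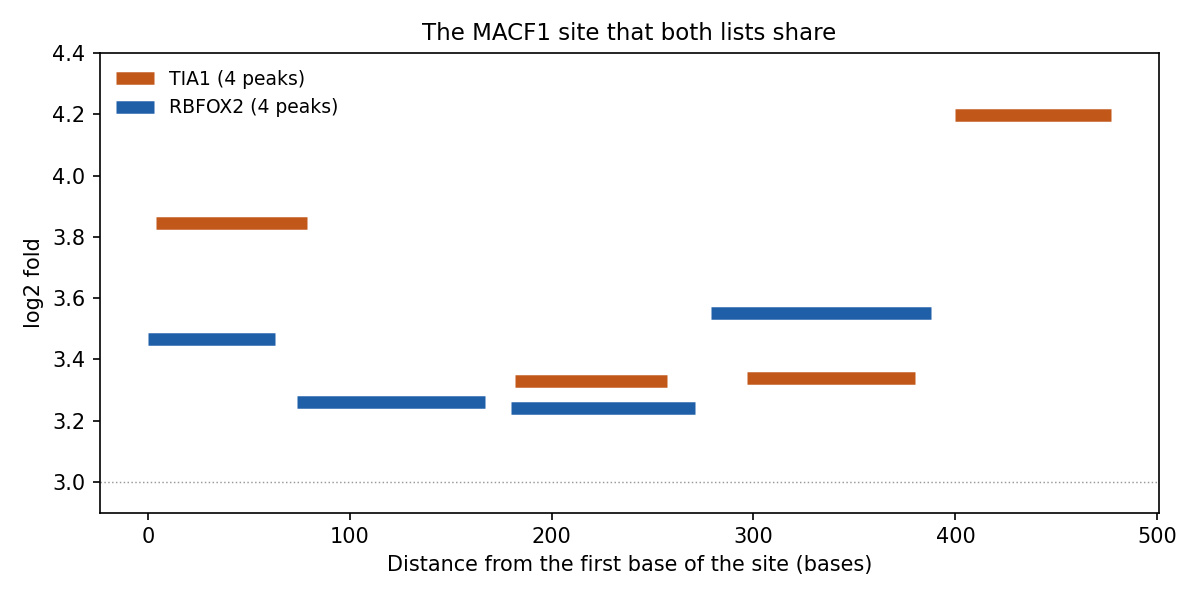
The MACF1 site covered by both lists, with distance in bases from its first base on the x axis and the authors' log2 fold on the y axis; each bar is 1 peak drawn to its width. The 4 RBFOX2 peaks (blue) lie close together between 0 and 388 bases, and the TIA1 peak of log2 fold 4.20 (orange) lies at the 3′ end, past the last of them.

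Where peaks of the lists met in MACF1, neither protein had the higher fold throughout. TIA1 exceeded RBFOX2 by 0.38 and 0.58 on the log2 scale in the first TIA1 peak against its pair of RBFOX2 partners, and by 0.087 in the second TIA1 peak. In the third the difference, TIA1 minus RBFOX2, was -0.21. TIA1 and RBFOX2 were precipitated separately, with yields and depths unknown, and no error is available for these differences.

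The other 4 MACF1 peaks of TIA1 lay upstream of the shared site, without an RBFOX2 peak near them. The log2 fold was 3.73 in a 26-base peak at 39765894 to 39765919 and 3.18 in a 111-base peak at 39768609 to 39768719. It was 3.76 in a 50-base peak at 39838219 to 39838268. These 3 peaks had −log10 p of 4.25, 5.68 and 4.23, below the median of the TIA1 list. The fourth, at 39844133 to 39844169, had the highest log2 fold of all plakin peaks, 4.32 or 19.9-fold, higher than that of 95.9% of TIA1 peaks, with a −log10 p of 5.02. The nearest RBFOX2 peak was between 30.6 and 108.8 kb from each of them. The first 219.9 kb of the MACF1 span held no peak of either protein.

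In PLEC the 5 TIA1 peaks were spread over 17.4 kb in the 3′ part of the gene, between 39.6 and 57.0 kb from the 5′ end of its 62 kb span. The first 39.6 kb held none of them. In the direction of transcription, a 22-base peak at 145011335 to 145011356 came first, at a log2 fold of 3.39, and a 7-base peak at 145011231 to 145011237 followed after 97 bases, with 3.36. Then came an 8-base peak at 145006568 to 145006575, whose log2 fold was 3.06. The last 2 were broader: 93 bases at 145001799 to 145001891 with 3.27, and 61 bases at 144993923 to 144993983 with 3.41.

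The PLEC log2 folds ran from 3.06 to 3.41. The 8-base peak was near the lower limit of the list, with 9.05% of TIA1 peaks below it. Of the 5, 3 were above the list median, as are 50% of the list by construction. The −log10 p of the PLEC peaks ran from 3.10 in the first peak to 5.17 in the 93-base peak. Of the 5, 1 reached 5, against 71.4% of TIA1 peaks. The nearest RBFOX2 peak on the strand was 70.8 kb or more from each PLEC peak. Peaks of under 20 bases made up 2 of the 14 plakin peaks of TIA1, both in PLEC, against 18.8% of the TIA1 list. In RBFOX2 they made up 1 of 7, against 9.79%.

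EPPK1 lies beside PLEC on the same strand, and neither protein had a peak within its 14 kb. The nearest TIA1 peak towards PLEC was the last PLEC peak, 40.9 kb away, and the nearest on the other side was 48.2 kb away. The nearest RBFOX2 peak lay 15.9 kb from the EPPK1 span, at 144923035 to 144923129, and its log2 fold was 3.18. The longest EPPK1 transcript of GENCODE 29 has 16002 bases, longer than the 14 kb span, so the span may not hold the whole RNA. With the span widened by 5 kb on each side it still held 0 peaks of either protein. EPPK1 codes for long repeats that resemble one another closely, and the treatment of reads with more than 1 match is not stated.

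In DST the peaks of the proteins were far apart. The only TIA1 peak (56708059 to 56708125) showed a log2 fold of 3.41 and a −log10 p of 4.04, and lay 111.9 kb from the 5′ end of the 498 kb span. The 3 RBFOX2 peaks lay between 418.3 and 419.9 kb from that end and 306.3 kb or more from the TIA1 peak. For a 142-base RBFOX2 peak at 56401589 to 56401730 the log2 fold was 3.05 and the −log10 p 7.60. A 12-base peak at 56401577 to 56401588 abutted it at its 3′ end, with a log2 fold of 4.01 and a −log10 p of 7.70. Neighbouring bases thus had folds of 8.30 and 16.1 on the linear scale but nearly the same −log10 p. The third peak followed after 1486 bases, at 56400026 to 56400090, with a log2 fold of 3.71 and a −log10 p of 4.55.

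Listed peaks outside the DST span were far from it on its strand, and how common such gaps are in the lists was not examined. The nearest peaks towards the start of the chromosome, 1 of each list, were 2912.2 kb (TIA1) and 2912.5 kb (RBFOX2) away, and the nearest in the other direction were 19144 kb away for both proteins. The MACF1 span had a TIA1 peak 51.6 kb and an RBFOX2 peak 88.9 kb before its 5′ end. That TIA1 peak, outside the rule, had a log2 fold of 3.63 and a −log10 p of 8.63. Past the 3′ end of MACF1 the nearest peaks were 886.6 kb (TIA1) and 805.6 kb (RBFOX2) away. Past the 3′ end of PLEC the nearest TIA1 peak, at 144890780 to 144890783, was 98.2 kb away and reached a log2 fold of 3.74. Before the 5′ end of PLEC the nearest TIA1 peak was 499.1 kb away.

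The plakin peaks of TIA1 were set beside all peaks of the list. Their median log2 fold was 3.40, against 3.36 over all TIA1 peaks, and 9 of 14 were above that median, as are 50% of the list by construction. All 14 were below the median −log10 p of the list, 7.36, which 50% of the list is by construction, and the highest was 5.86. A −log10 p of at least 5 was reached by 4 of 14, against 71.4% of TIA1 peaks. Log2 folds of 4 or more were seen in 2 of 14, both in MACF1, against 9.21%. Since these values were in view when the genes were chosen, nothing is read from the shares.

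The 7 RBFOX2 peaks were set beside their list in the same way. Their median log2 fold was 3.47, against 3.48 over all RBFOX2 peaks, and 3 of 7 were above it, against 50% by construction. Of the 7, 3 were below the median −log10 p of 6.77, against 49.9% of the list, and 5 reached 5, against 68.4%. The 12-base peak in DST was the 1 of 7 with a log2 fold of 4 or more, against 19.3%.

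**Figure D3:**
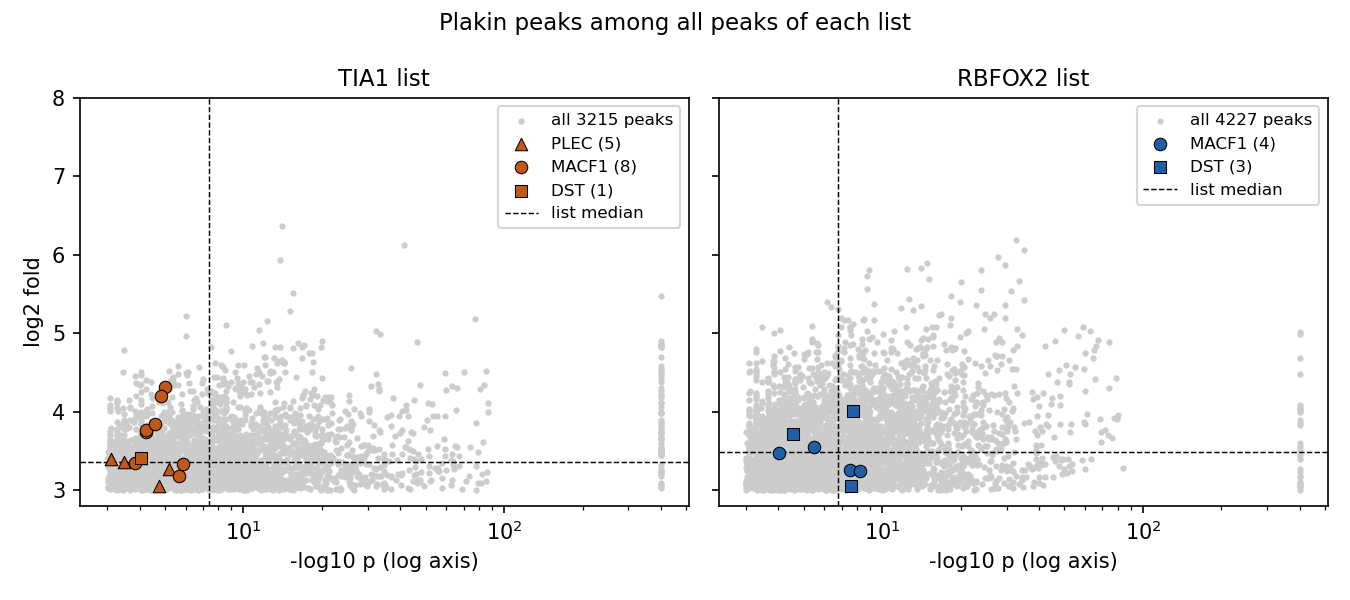
The authors' −log10 p (x axis, log scale) and log2 fold (y axis) of all TIA1 peaks (left) and RBFOX2 peaks (right) in grey, with plakin peaks in colour and the list medians as dashed lines. All 14 TIA1 plakin peaks lie left of the median −log10 p of 7.36, and the 7 RBFOX2 peaks lie on both sides of 6.77.

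Overlap between the lists and closeness of peaks both came down to a few places. Of the TIA1 plakin peaks, 3 of 14 overlapped an RBFOX2 peak by at least 1 base, against 24% of the list, and of the RBFOX2 plakin peaks 4 of 7 overlapped a TIA1 peak, against 21.7%. All of these lay in the MACF1 site. Another peak of the same list lay within 1 kb for 6 of 14 TIA1 peaks, against 53.7%, and for 6 of 7 RBFOX2 peaks, against 66.5%. With peaks within 50 bases joined, TIA1 had 12 plakin sites and RBFOX2 had 3, of which 1 was in MACF1 and 2 were in DST.

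For scale, the genome was divided into strand-specific tiles of the length of each span. Of the 1769 tiles of 62 kb with a TIA1 peak, 104 held at least the 5 seen in PLEC, or 5.88%. Of 1463 tiles of 407 kb with a TIA1 peak, 45 held at least the 8 of MACF1, or 3.08%. In the RBFOX2 list, 335 of 1628 such tiles held at least the 4 of MACF1 (20.6%), and 501 of 1570 tiles of 498 kb held at least the 3 of DST (31.9%). Every one of the 1426 tiles of this length with a TIA1 peak held at least the 1 of DST. This is so by construction, since only tiles with a peak were counted. These counts include the tiles of the genes themselves, and the share of tiles with as many peaks differed between the lists and genes. For the counts of 0, an RBFOX2 peak was held by 1946 tiles of 62 kb, the length of PLEC. At 14 kb, the length of EPPK1, 1937 tiles held a TIA1 peak and 2101 an RBFOX2 peak. The share of all tiles with 0 peaks is not given.

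The mature RNAs of the 4 genes are all long but differ in composition. The longest protein-coding transcripts in GENCODE 29 have 24828 bases for MACF1, 22431 for DST, 16002 for EPPK1 and 15249 for PLEC, against a median of 2934 over the longest transcripts of 19669 protein-coding genes. GC content was 68.1% in EPPK1 and 67.0% in PLEC, and 46.0% in MACF1 and 41.3% in DST, against a median of 49.4%. The word TTTTT, searched on the sense strand with overlapping copies counted, occurred 26 times in EPPK1, 31 in MACF1, 16 in DST and 0 times in PLEC. Per kb of these longest transcripts this was 1.62 in EPPK1, 1.25 in MACF1, 0.71 in DST and 0 in PLEC. All 4 were below the median of 2.31 over the longest transcripts of all genes. It was also absent from all 14 protein-coding PLEC transcripts, whereas 83.1% of all genes had it in their longest transcript. Other PLEC transcripts and introns were not searched, and whether the word is related to the TIA1 peaks was not tested. EPPK1 had the highest density of the 4 among the longest transcripts only. Over the 17 protein-coding MACF1 transcripts the count ran from 0 to 51, and over the 18 of DST from 0 to 27. The 51 copies lay in 19141 bases, a density above that of the longest EPPK1 transcript and above the median of 2.31. The order of the genes by this word therefore depends on the transcript taken.

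The RBFOX2 word GCATG occurred 20 times in the MACF1 transcript, 16 times in DST, 12 times in PLEC and 2 times in EPPK1. Per kb this was 0.81 in MACF1, 0.71 in DST, 0.79 in PLEC and 0.12 in EPPK1, against a median of 0.84 over all genes, 85.6% of which had it. In these longest transcripts the density in PLEC lay between those of DST and MACF1. Whether the word is related to the presence of RBFOX2 peaks was not tested. These searches cover spliced RNA only, so introns are not included, and no word could be placed under a peak because the sequence at hand was not of the hg19 build. Exon, intron or untranslated region could not be assigned to the peaks for the same reason.

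By the names in GENCODE 29, MIR661 overlaps PLEC on its strand and AL356055.1 overlaps MACF1 on its strand. DST and EPPK1 had 0 such overlaps. Whether a peak in PLEC or MACF1 stems from RNA of those overlapping genes was not tested.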

How the data were processed

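Peaks of TIA1 and RBFOX2 eCLIP in HEK293T cells were taken as the authors deposited them, in 1 list per protein that joins 2 clip and 2 input libraries. The submitters' processing notes name UMI-tools 1.0.0, cutadapt 1.14, STAR 2.4.0i, SAMtools 1.6 and hg19, without roles. The sources used here name no peak caller. The lists have no header: the deposited columns were taken as −log10 p (3.01 to 400) and log2 fold (from 3.00) from their ranges. Read depth is unknown, so precision cannot be given.

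Peaks sharing at least 1 base with a span on the gene strand were members. Positions are 1-based. Python 3.11.15 with matplotlib 3.10.9, scipy 1.17.1, numpy 2.4.6 and pandas 2.3.3 was used, and counting was tested on simulated data. No test was run, because members and lists were chosen with earlier results of these data known. Every peak was named, which goes past the planned rule for MACF1. Planned counts of related cytoskeletal genes needed an hg19 annotation and were not analysed here. Transcript words came from GENCODE 29 without coordinates, an addition made after the peaks were seen. Alternatives were stricter fold and p limits, joining, a minimum width and other span and overlap rules.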

Additional observations from a re-analysis of the deposited data

How the results depend on the processing

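Requiring a log2 fold of at least 4 in both lists left 2 TIA1 peaks and 1 RBFOX2 peak in the 4 genes, with 0 overlaps in either direction. The median log2 fold was then 4.26 in TIA1 and 4.01 in RBFOX2, the latter from the 1 peak left, and both rises follow from the limit. Requiring a −log10 p of at least 5 left 4 TIA1 peaks, and 1 peak of each list then overlapped the other. With peaks within 50 bases joined there were 3 RBFOX2 sites, 1 of which overlapped a TIA1 site. The other 17 counts recomputed for the 4 genes together were within 1.5 times the main count. They include every such count with the whole peak required within the span, with spans widened by 5 kb, with peaks of at least 20 bases, and with an overlap of 50% of each peak. Under the settings other than the fold limit the median log2 fold lay between 3.30 and 3.41 in TIA1 (3.40 as reported) and between 3.26 and 3.71 in RBFOX2 (3.47 as reported), with no replicate spread to set this against. In PLEC the TIA1 count fell from 5 to 0 with the fold limit, to 1 with the p limit and to 3 without peaks under 20 bases. The TIA1 count fell from 8 to 2 (fold limit) and 3 (p limit) in MACF1, and from 1 to 0 under both in DST. RBFOX2 counts fell from 4 to 0 (fold limit) and 1 (joined) in MACF1, and from 3 to 1 (fold limit) in DST. The other counts per gene were within 1.5 times the main count. No paired analysis was possible because the deposited lists give no value per replicate, so no replicate could be left out either. The unknown depth limits what a missing peak can show.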
